A study of Homo sapiens with 12 samples.

Results

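The plasminogen activators PLAU and PLAT, the urokinase receptor PLAUR and the inhibitor SERPINE2 were followed in newly made RNA of U2OS MycER cells, human osteosarcoma cells with a Myc protein joined to an estrogen receptor domain. The 4 genes are 4 of the 23434 genes in the count table. They were picked by name with their values over all 4 conditions already known, so their levels and fold changes are a description. Where members past a threshold are counted, the count is part of that description and tests nothing.

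The cells were given 5-ethynyl-uridine (EU) at 0.5 mM for 2 h, and the RNA that took it up was pulled down and sequenced (EU-seq). There were 12 libraries, 3 in each of 4 groups: shNT (a non-targeting hairpin), shNT+OHT, shCDK12 and shCDK12+OHT. All groups received doxycycline at 1 µg/mL, were arrested with nocodazole at 100 ng/mL for 8 h, collected by shake-off and released for 12 h. The OHT groups also received 4-hydroxytamoxifen, which switches MycER on, at 300 nM for 40 h. MycER is a transgene present in every group. Nothing in the labels says whether replicates came from separate cultures, so the p-values below measure the spread between these libraries, which may be technical.

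CDK12, a kinase of elongating RNA polymerase II and the target of the hairpin, was read first in every library. Its CPM, the count scaled by TMM to a common library size, was 323, 289 and 300.2 in shNT, and 293, 277 and 298 in the libraries labelled shCDK12. These ranges overlapped, with a log2 fold change of -0.08 and an adjusted p of 0.447 (edgeR, quasi-likelihood, adjusted after Benjamini and Hochberg over all genes tested). CDK12 was at 434, 356 and 400.5 CPM in shNT+OHT and at 215, 208 and 218 in the libraries labelled shCDK12+OHT. These ranges did not overlap, with a log2 fold change of -0.88 (edgeR adjusted p = 1.1e-04). A hairpin acts on mature RNA, so newly made RNA is a weak check of it. Without OHT the target did not separate the libraries labelled shCDK12 from shNT, while with OHT it did separate the groups. Every direction below that involves the CDK12 hairpin is a direction between libraries as labelled. Library totals ran from 1251695 to 10447836 counts, with medians of 4314380 in shNT, 3297982 in shNT+OHT, 5349901 in shCDK12 and 7173020 in shCDK12+OHT. Of 8 mesenchymal and osteoblast-lineage markers, the summed level was 1548 to 1633 CPM in shNT and 1030 to 1131 in shNT+OHT. It was 423 to 432 in the libraries labelled shCDK12 and 591 to 604 in those labelled shCDK12+OHT. FN1 held the largest part in shNT, with means of 659, 347, 38.2 and 100 CPM in this order. VIM, with means of 323, 330, 180 and 174 CPM, was not lower with OHT in shNT. TWIST1 had 0 to 2 counts and COL1A2 0 to 5. Of 5 epithelial markers, the sums were 36.6 to 47.6, 23.1 to 38.6, 55.7 to 63.0 and 110 to 123 CPM in the same order, with CLDN4 reaching 109.9 CPM. These sums are mostly CLDN4, with means of 28.8, 19.2, 44.4 and 106 CPM. EPCAM had means of 0.82, 1.58, 8.03 and 2.64 CPM, and CDH1 9.57, 9.32, 6.10 and 7.63, so the markers differ in direction. KRT5 and KRT14 reached at most 2.5 and 2.0 CPM. The part of all these marker genes in the results below was not tested.

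Urokinase (PLAU) and tissue plasminogen activator (PLAT) are secreted serine proteases that cut the zymogen plasminogen into plasmin, which degrades fibrin and matrix proteins and activates other proteases. The receptor uPAR (PLAUR) is a lipid-anchored surface protein that holds urokinase at the cell membrane. SERPINE2 (protease nexin-1) is a serpin that traps the activators, and the complexes are taken up by receptors of the LDL receptor family.

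Promoters are shown for the members because all 4 were measured as newly made RNA. A RefSeq table (GRCh38.p14) held 5 start sites for 3 of the members, and the 250 bases before each were searched on both strands for the E-box CACGTG, the AP-1 motif TGANTCA, the GC box GGGCGG and the TATA box TATAAA. Motif letters are in capitals, and each sequence runs 5′ to 3′ on the strand of its gene.
PLAU, chr10:73910882-73911131, plus strand: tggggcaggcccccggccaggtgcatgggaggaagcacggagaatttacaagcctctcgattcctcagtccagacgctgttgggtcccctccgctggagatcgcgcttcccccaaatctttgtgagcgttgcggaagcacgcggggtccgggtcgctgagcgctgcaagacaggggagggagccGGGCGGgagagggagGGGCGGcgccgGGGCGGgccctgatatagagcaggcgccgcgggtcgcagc
SERPINE2, chr2:224031479-224031728, minus strand: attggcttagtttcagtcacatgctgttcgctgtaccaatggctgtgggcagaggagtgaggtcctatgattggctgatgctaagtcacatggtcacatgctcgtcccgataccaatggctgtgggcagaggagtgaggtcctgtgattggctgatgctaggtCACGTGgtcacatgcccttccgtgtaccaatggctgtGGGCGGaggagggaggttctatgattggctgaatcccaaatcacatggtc
PLAUR, chr19:43670337-43670366, minus strand: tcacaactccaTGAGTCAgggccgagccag
The PLAU window held 3 GC boxes and none of the other motifs, while the window of its other start held none of the 4. The PLAUR motif began 186 bases before the start. The SERPINE2 window held 1 E-box and 1 GC box, and the window of its other start 2 GC boxes. Over 35116 promoters of the table, 6.34% held the E-box, 6.57% the AP-1 motif, 42.6% the GC box and 10.7% the TATA box. A match of letters is a description and not a site of binding.

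PLAU had the widest range of the 4 genes. It was at 174, 177 and 161 CPM in shNT, from 741, 907 and 322 counts. In shNT+OHT it was at 56.1, 34.6 and 52.5 CPM, from 179, 42 and 181 counts. All libraries with OHT thus lay below all shNT libraries, and the log2 fold change was -1.80 (SE 0.17, 95% interval -2.16 to -1.44, n = 3 per group). In the libraries labelled shCDK12, PLAU was at 14.8, 10.8 and 9.07 CPM, from 64, 103 and 49 counts. The mean in shNT was 14.8 times this level, and the log2 fold change was -3.92 (SE 0.14, 95% interval -4.21 to -3.62). With OHT added, the libraries labelled shCDK12+OHT were at 53.7, 65.0 and 60.6 CPM, all above those labelled shCDK12. That log2 fold change was 2.40 (SE 0.16, 95% interval 2.07 to 2.73). The 2 OHT groups overlapped, with a log2 difference of 0.30 (SE 0.17, 95% interval -0.08 to 0.68) for shCDK12+OHT against shNT+OHT. C10orf55, a transcript annotated on the opposite strand and overlapping PLAU, has its own row with 5 to 46 counts per library. The kit marks strand, but the strand setting used in counting is not given in the sources used here.

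PLAT, the other activator, had the same order of group means as PLAU. It was at 52.5, 57.8 and 51.6 CPM in shNT, from 224, 296 and 103 counts. In shNT+OHT it was at 16.3, 23.9 and 27.3 CPM, from 52, 29 and 94 counts. Every OHT library was below every shNT library, a log2 fold change of -1.28 (SE 0.22, 95% interval -1.75 to -0.81). After thinning all libraries to the smallest total this came to -0.57 and was no longer called. The libraries labelled shCDK12 were at 13.9, 12.3 and 18.5 CPM, and those labelled shCDK12+OHT at 35.3, 34.5 and 31.7 CPM. The first of these groups lay below shNT by a log2 fold change of -1.88 (SE 0.17), and the second above the first by 1.21 (SE 0.16), with no overlap in either case. Against shNT+OHT, the libraries labelled shCDK12+OHT were all higher, with a log2 fold change of 0.62 (SE 0.21).

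**Figure D1:**
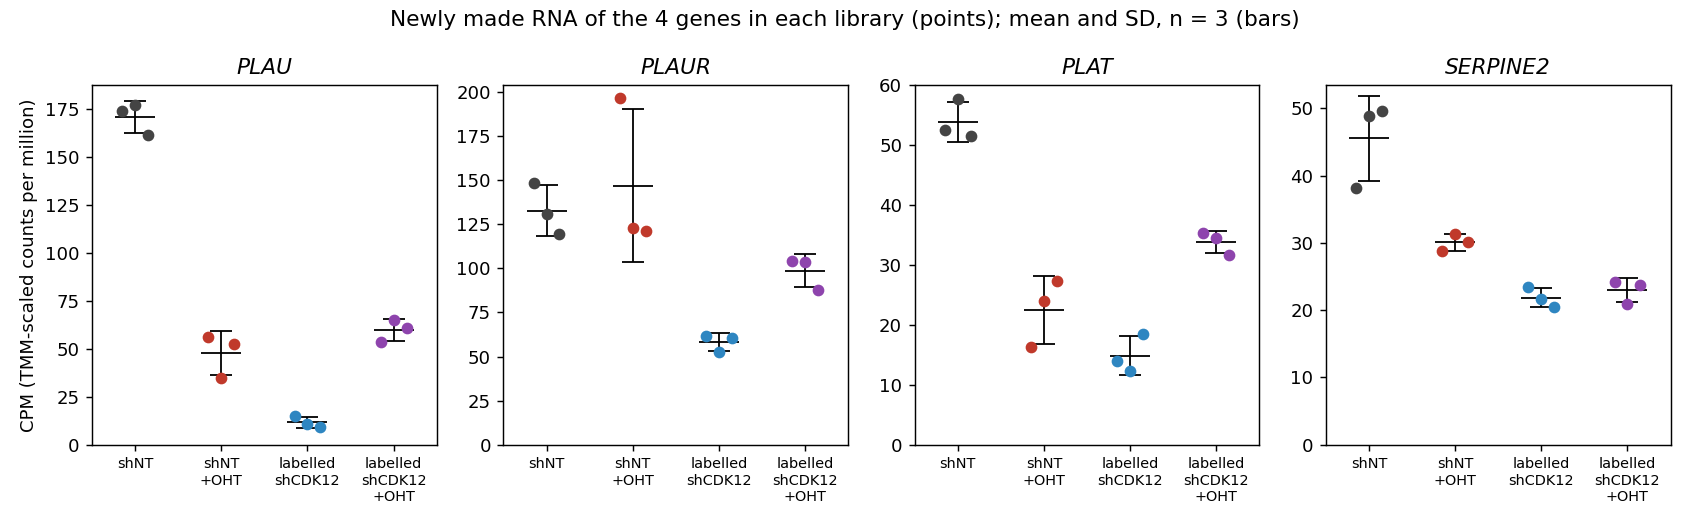
Level of each of the 4 genes (CPM, TMM-scaled, axis from 0) in the 12 libraries by labelled group. Points are libraries, the long horizontal bar is the mean and the capped bar the SD (n = 3); PLAU runs from 9.07 to 177 CPM, and PLAUR in shNT+OHT is spread by 1 library at 197.

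PLAUR, the receptor, had overlapping levels with and without OHT under the shNT hairpin. It was at 148, 131 and 119 CPM in shNT, from 633, 670 and 238 counts. In shNT+OHT it was at 197, 123 and 121 CPM, from 628, 149 and 417 counts. These groups overlapped, and replicate 1 of shNT+OHT stood above the rest. The log2 fold change was 0.15 (SE 0.18, 95% interval -0.23 to 0.53), and without that library it was -0.12. The libraries labelled shCDK12 were at 61.8, 52.5 and 60.5 CPM, all below shNT, with a log2 fold change of -1.21 (SE 0.11). Those labelled shCDK12+OHT were at 104, 104 and 87.8 CPM, all above shCDK12, with a log2 fold change of 0.77 (SE 0.10). They lay below all 3 shNT+OHT libraries, with a log2 fold change of -0.57 (SE 0.19), which came to -0.30 without shNT+OHT replicate 1.

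SERPINE2, the inhibitor, had the narrowest range. It was at 38.2, 48.8 and 49.6 CPM in shNT, from 163, 250 and 99 counts, and at 28.8, 31.3 and 30.2 CPM in shNT+OHT, from 92, 38 and 104 counts. The OHT libraries all lay below shNT, with a log2 fold change of -0.60 (SE 0.20, 95% interval -1.03 to -0.17). The libraries labelled shCDK12 were at 23.4, 21.6 and 20.5 CPM, all below shNT, with a log2 fold change of -1.05 (SE 0.16). Those labelled shCDK12+OHT were at 24.2, 20.9 and 23.8 CPM and overlapped with shCDK12. This log2 fold change was 0.07 (SE 0.14, 95% interval -0.22 to 0.36). Against shNT+OHT they were all lower, by a log2 fold change of -0.37 (SE 0.18, 95% interval -0.76 to 0.02). In bulk RNA of this kind, fewer cells making a transcript and less transcript per cell cannot be told apart.

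**Figure D2:**
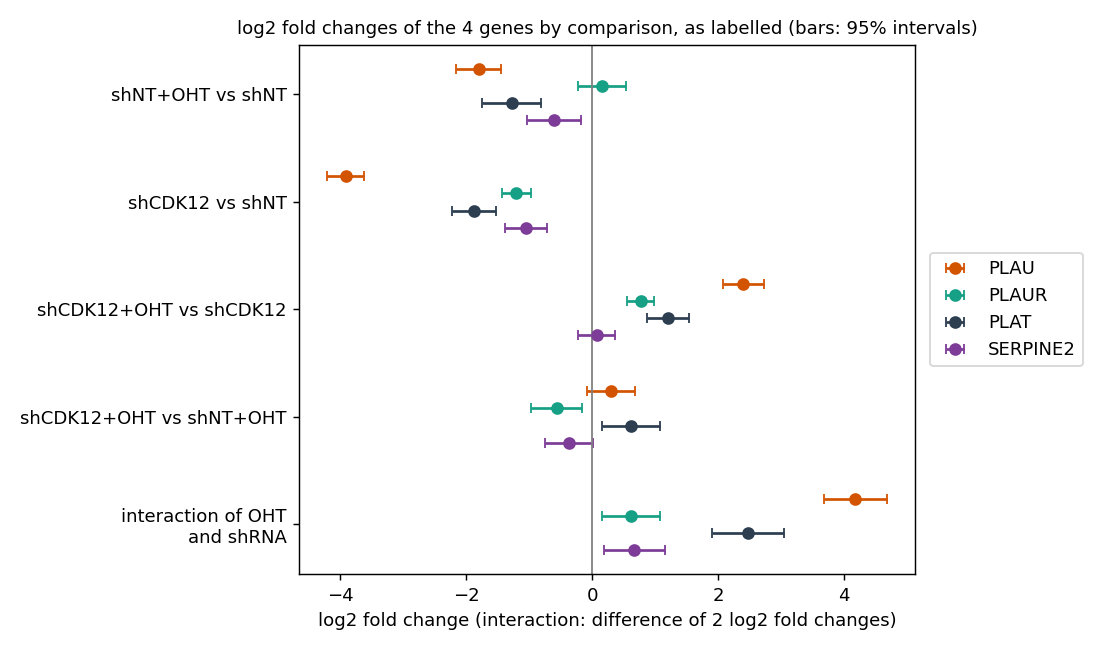
log2 fold change of each gene (horizontal axis) in the 4 comparisons of labelled groups and, in the last row, the difference between the OHT responses with and without the CDK12 hairpin. Points are estimates of edgeR and bars their 95% intervals; PLAU lies farthest from 0 in all rows but that of shCDK12+OHT against shNT+OHT.

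The comparisons share libraries (each group enters more than 1 of them), so their values are set side by side and not compared by a test. By an adjusted p under 0.05 in edgeR's quasi-likelihood test, 2 of the 4 members (PLAU and PLAT) were lower in shNT+OHT than in shNT, where 17.3% of 10272 genes were called (9.05% higher and 8.29% lower). All 4 were lower in the libraries labelled shCDK12 than in shNT, where 62% of 11718 genes were called (29.6% higher and 32.4% lower). PLAU, PLAUR and PLAT were higher in shCDK12+OHT than in shCDK12, where 48.9% of 12519 genes were called (27.5% higher and 21.5% lower). PLAT was higher and PLAUR lower in shCDK12+OHT when set against shNT+OHT, where 45.4% of 11668 genes were called (23.8% higher and 21.6% lower), and neither gene kept its call without shCDK12+OHT replicate 1, 2 or 3. PLAT also lost it without shNT+OHT replicate 1, at a log2 fold change of 0.37. Because these contrasts chose the members, nothing is read from the counts, or from groups whose libraries did not overlap. The members' median log2 fold changes were -0.94, -1.54, 0.99 and -0.03 in this order, beside medians of -0.03, -0.03, 0.05 and 0.05 over all genes tested.

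The response to OHT in the libraries labelled shCDK12 minus that in shNT libraries was 4.18 for PLAU (SE 0.24), 2.48 for PLAT (SE 0.27), 0.67 for SERPINE2 (SE 0.23) and 0.61 for PLAUR (SE 0.22), on the log2 scale. PLAU and PLAT were lower with OHT in shNT and higher with OHT in the libraries labelled shCDK12. For this difference 45.2% of 11699 genes were called (25.6% higher and 19.6% lower) and the median over them was 0.10, which upper-quartile scaling moved to -0.02. All 4 members passed the threshold, which the choice of members used, but the calls of PLAUR and SERPINE2 were lost with upper-quartile scaling, at 0.49 and 0.55. The call of PLAUR was also lost without replicate 1 or 2 of shNT, 2 or 3 of shNT+OHT, 2 of shCDK12, or 1 or 2 of shCDK12+OHT. That of SERPINE2 was lost without replicate 2 or 3 of shNT, 2 or 3 of shCDK12, or 1 or 3 of shCDK12+OHT.

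Levels of different genes can be set side by side only per length, and here the choice of length matters. Per kilobase of all annotated exons merged (GENCODE v44), mean levels in shNT were 57.9 CPM for PLAU, 29.8 for PLAUR, 6.94 for PLAT and 5.08 for SERPINE2. Per kilobase of the MANE Select transcript alone, a length tried after the first values had been seen, they were 72.8, 97.1, 17.6 and 20.5. PLAU is thus above PLAUR by the one length and below it by the other, and PLAT and SERPINE2 trade places too, so no order within these pairs is given. Changes of a ratio between groups do not depend on the length. Within single libraries, the ratio of PLAU to PLAUR per base of merged exon was 1.77 to 2.05 in shNT, 0.426 to 0.656 in shNT+OHT, 0.227 to 0.362 in the libraries labelled shCDK12 and 0.777 to 1.04 in those labelled shCDK12+OHT. None of these 4 ranges overlapped. The ratio of PLAU to SERPINE2, an activator to an inhibitor, was 9.88 to 13.8 in shNT, 3.36 to 5.91 in shNT+OHT, 1.34 to 1.93 in shCDK12 and 6.74 to 9.44 in shCDK12+OHT, again with no overlap. Both ratios hold PLAU, a gene chosen with its values known, so these separations are a description. The share of all gene pairs whose ratios separate in this way was not computed. Other ratios did overlap between groups. PLAU to PLAT was 8.34 ± 0.334 (SD, n = 3) in shNT, 5.99 ± 2.74 in shNT+OHT, 2.14 ± 0.775 in shCDK12 and 4.67 ± 0.575 in shCDK12+OHT, and the shNT+OHT range of 3.82 to 9.07 overlapped those of shNT and shCDK12+OHT. PLAT to SERPINE2 was 1.20 to 1.58 in shNT, 0.652 to 1.04 in shNT+OHT, 0.655 to 1.04 in shCDK12 and 1.54 to 1.90 in shCDK12+OHT. For this ratio shNT+OHT overlapped shCDK12, and shNT overlapped shCDK12+OHT.

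**Figure D3:**
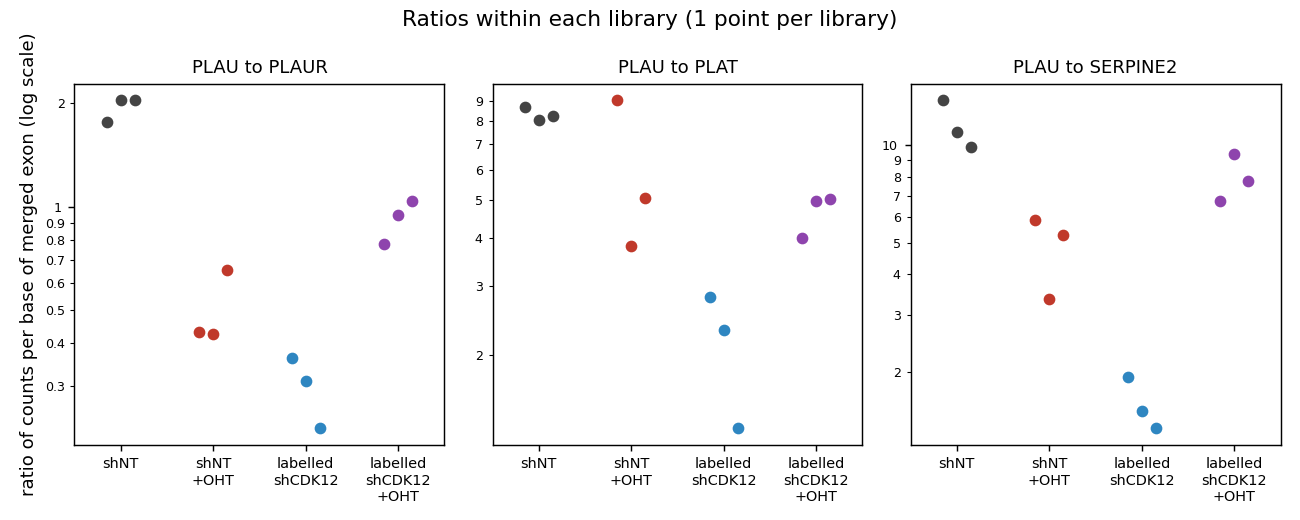
Ratio of PLAU to PLAUR, PLAT and SERPINE2 in each library, as counts per base of merged exon on a logarithmic axis, by labelled group (1 point per library). PLAU to PLAUR is 1.77 to 2.05 in shNT and 0.227 to 0.362 in the libraries labelled shCDK12; another gene length moves all points of a panel by the same factor.

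By the root-mean-square difference of centred log2 CPM over the 12 libraries, among 11698 genes, the pattern of PLAU was most like that of LOXL4 (0.37), AHNAK2 (0.39) and HNRNPA1P33 (0.44), where the median gene was at 1.44. HNRNPA1P33 is a pseudogene whose reads may be shared with its copies. LOXL4, an enzyme of the lysyl oxidase family, had mean levels of 376, 140.0, 36.3 and 126 CPM in shNT, shNT+OHT, shCDK12 and shCDK12+OHT. PLAUR was most like S100A11 (0.12), TFE3 (0.13) and ZBTB22 (0.13), with a median of 0.64. PLAT was most like MAML2 (0.18), ABLIM1 (0.23) and RFX5 (0.23), with a median of 0.79. SERPINE2 was most like CPSF2 (0.14), FNDC3B (0.15) and E2F7 (0.15), with a median of 0.55. Among the members themselves PLAUR and SERPINE2 were the closest pair (0.44) and PLAU and SERPINE2 the most distant (1.10). This measure also follows the size of the changes. The SD over the 12 libraries was 0.43 for SERPINE2, 0.54 for PLAUR, 0.73 for PLAT and 1.41 for PLAU. The distance of PLAUR and SERPINE2 is thus no smaller than the spread of SERPINE2 itself, and no shared pattern is read from it.

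Of 45 other genes of the plasminogen system, 27 had enough counts for a test in at least 1 comparison. This list was also drawn up with earlier results of these data known, so its counts are a description. Plasminogen itself (PLG) had 0 to 2 counts per library, SERPINB2 0 to 27 and SERPINF2 0 to 15, so none of these could be followed at this depth. In shNT+OHT against shNT, 1 of 18 genes tested was higher and 4 were lower, beside 17.3% called of all genes; the number called rose to 8 when shNT+OHT replicate 1 was left out and was 3 when shNT replicate 2 or 3 was. In the libraries labelled shCDK12 against shNT, 3 of 23 were higher and 14 lower, with a median log2 fold change of -0.73. Of all genes tested there, 62% were called (29.6% higher and 32.4% lower), with a median of -0.03. The 3 include F12 and SORL1, and the 14 include LYPD6, which reached the count filter through the group where they are high. Nothing is read from the part of these genes in this count. In shCDK12+OHT against shCDK12, 15 of 26 were higher and 2 lower, with a median of 0.62. Of all genes tested there, 48.9% were called (27.5% higher and 21.5% lower), with a median of 0.05. In shCDK12+OHT against shNT+OHT, 6 of 24 were higher and 10 lower, with a median of -0.30, beside 45.4%. SORL1 is among the 6 and A2M among the 10, and each reached the filter through the group where it is high. Nothing is read from their part here. For the difference between the OHT responses, 12 of 24 were higher and 4 lower, with a median of 0.84, beside 45.2%. F12 is among the 4 and reached the filter through the libraries labelled shCDK12, so nothing is read from its call.

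Among the inhibitors, SERPIND1 (heparin cofactor II) was lower in shCDK12 than in shNT (log2 fold change -0.73, edgeR adjusted p = 0.0373) at 4 to 152 counts per library. This call was lost without shNT replicate 3 (-0.47), shCDK12 replicate 1 (-0.61) or shCDK12 replicate 3 (-0.83), and with DESeq2, upper-quartile scaling or all 12 libraries in 1 fit. A2M, a broad protease trap, had 10 to 69 counts per library in shNT+OHT and 18 to 41 in the libraries labelled shCDK12+OHT. Its log2 value between them was -1.67, and -1.42 without shCDK12+OHT replicate 1. It reached the count filter through shNT+OHT, the group where it is high, so this is given with no test. Its level in shNT+OHT ran from 5.80 to 21.6 CPM (mean 11.9, SD 8.51). In the fits without single libraries it was tested in 5 and had too few counts otherwise.

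Newly made RNA was followed for both subunits of the annexin A2 complex, which binds plasminogen and tissue activator at the cell surface. The complex itself was not measured. ANXA2 had mean levels of 504 CPM in shNT, 358 in shNT+OHT, 159 in the libraries labelled shCDK12 and 378 in those labelled shCDK12+OHT. It was lower in shCDK12 than in shNT by a log2 fold change of -1.67 and higher in shCDK12+OHT than in shCDK12 by 1.25 (edgeR adjusted p = 4.8e-14 and 1.0e-09). S100A10, its partner, gave -2.11 and 1.21 in the same comparisons (edgeR adjusted p = 1.6e-13 and 1.3e-07). PLGRKT, another plasminogen receptor, had log2 values of -0.09 and 0.20 there and did not pass (edgeR adjusted p = 0.764 and 0.426).

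Among receptors that clear protease and inhibitor complexes, LRP1 was lower in shNT+OHT than in shNT (log2 fold change -0.88, edgeR adjusted p = 0.00684). It was also lower in shCDK12 than in shNT (-0.89, edgeR adjusted p = 1.2e-07) and higher in shCDK12+OHT than in shCDK12 (0.98, edgeR adjusted p = 1.6e-07). MRC2, a collagen receptor that associates with uPAR, was lower in shCDK12 than in shNT by a log2 fold change of -2.35 (edgeR adjusted p = 2.3e-12). IGF2R, which binds mannose 6-phosphate and uPAR, was lower in shCDK12 than in shNT (-0.46, edgeR adjusted p = 2.4e-04) and higher in shCDK12+OHT than in shCDK12 (0.46, edgeR adjusted p = 2.2e-04). SORL1, a sorting receptor, had 5 to 41 counts per library in shNT and up to 178 in the libraries labelled shCDK12, at mean levels of 6.05 and 22.3 CPM and a log2 value of 1.75. It reached the count filter through the group where it is high, so this is given with no test. VLDLR and LRP8 had log2 values of -0.25 and -7e-04 there and did not pass, and both were lower in shCDK12+OHT when set against shNT+OHT (-1.18 and -0.86, edgeR adjusted p = 0.00765 and 0.00189). Without shNT+OHT replicate 3 the value of VLDLR was -0.77.

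F3 (tissue factor, the starter of coagulation) had mean levels of 284, 176, 40.3 and 84.4 CPM in shNT, shNT+OHT, shCDK12 and shCDK12+OHT. Its log2 fold change was -2.79 in shCDK12 against shNT (SE 0.12, edgeR adjusted p = 2.0e-16) and 1.04 in shCDK12+OHT against shCDK12 (edgeR adjusted p = 2.5e-06). The thrombin receptor F2R gave -2.04 and 1.14 in these comparisons, the related F2RL1 -1.20 and 0.42, and the protein C receptor PROCR -1.29 and 0.67, and all of these passed. F12 (coagulation factor XII), the sole tested gene among the zymogens and contact proteases, had 2 to 7 counts per library in shNT, 6 to 28 in shNT+OHT, 60 to 160 in the libraries labelled shCDK12 and 23 to 59 in those labelled shCDK12+OHT. It reached the count filter through the libraries labelled shCDK12, so its log2 value of 3.48 against shNT is given with no test. TGFB1, whose latent form plasmin can release, was lower in shCDK12 than in shNT (-0.83, edgeR adjusted p = 7.0e-06).

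Of the proteins with the uPAR fold, LYPD1 was lower in shCDK12 than in shNT (log2 fold change -1.64, edgeR adjusted p = 2.7e-06) and higher in shCDK12+OHT than in shCDK12 (1.41, edgeR adjusted p = 7.9e-06). LYPD6 had a log2 value of -1.05 in the first of these comparisons, at mean levels of 9.47 CPM in shNT and 4.56 in shCDK12. It reached the count filter through shNT, the group where it is high, so this is given with no test. Without shNT replicate 2 or shCDK12 replicate 2 it had too few counts to test. CD59, an inhibitor of complement, did not pass there (-0.04, edgeR adjusted p = 0.706) and was higher in shCDK12+OHT than in shCDK12 (0.62, edgeR adjusted p = 5.7e-06).

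**Figure D4:**
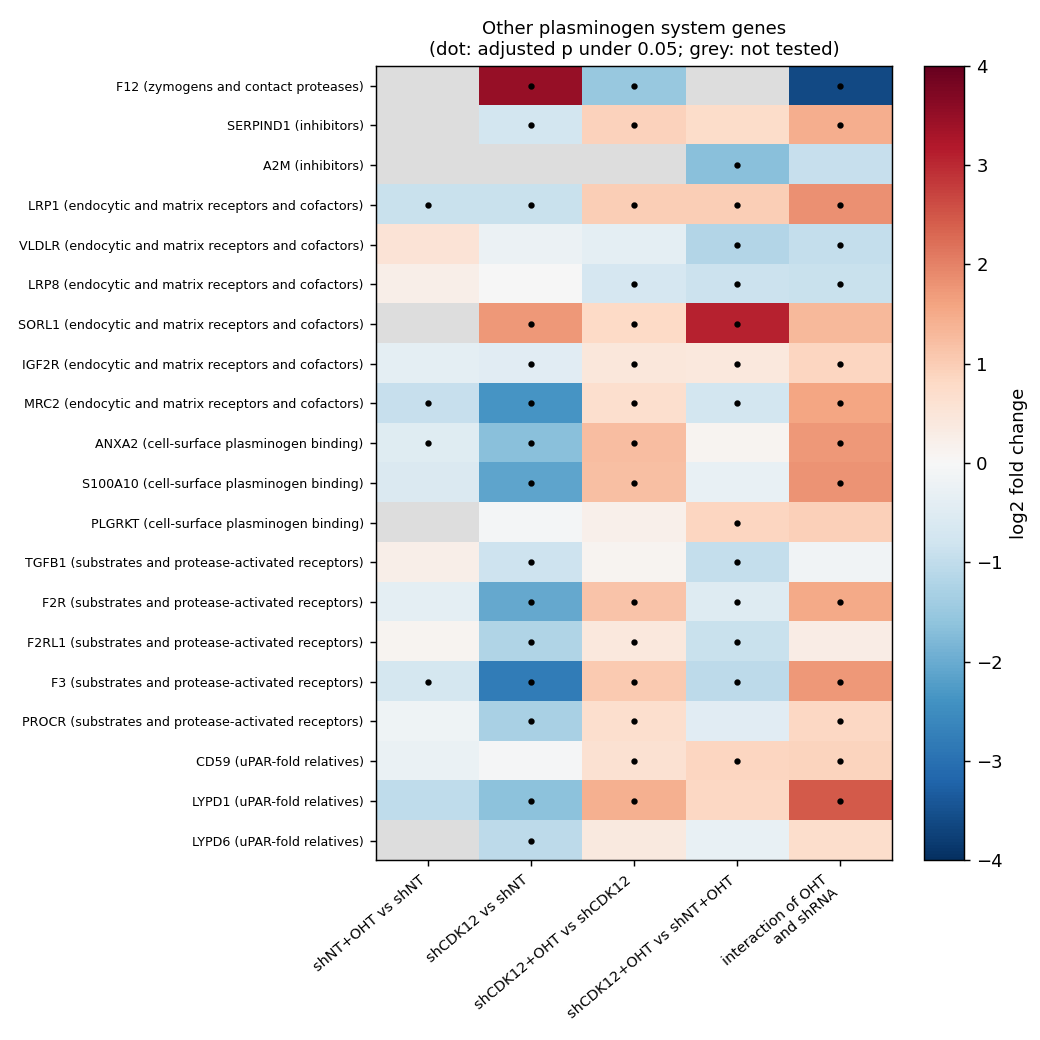
log2 fold change (colour, from -4 to 4) of the 20 named genes of the plasminogen system in rows, by the 5 comparisons in columns. Dots mark an adjusted p under 0.05 and grey a gene with too few counts to test; in the libraries labelled shCDK12 against shNT, F12 and SORL1 have positive values that rest on low counts in shNT, and F3, MRC2, S100A10 and F2R are lower by a log2 value over 2.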

How the data were processed

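EU-seq libraries of U2OS MycER cells were analysed as raw counts per gene, deposited by the authors as 1 table with Entrez identifiers. The submitters' processing notes name STAR 2.7.5c, featureCounts 1.4.5-p1 and hg19; the annotation and the strand setting are not given in the sources used here. Mouse RNA (10 µg beside 40 µg of human RNA) was added before the pull-down, but no mouse genes are in the table, so changes in total RNA cannot be seen. Groups came from the sample titles.

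Genes with a mean normalized count over 32 were tested with edgeR 4.0.16 (R 4.3.3), by quasi-likelihood with TMM scaling and Benjamini-Hochberg adjustment over all genes tested, at 0.05. Each pair of groups was fitted on its 6 libraries and the difference between OHT responses on all 12. The scripts were tested on simulated data. Replicate libraries differed by more than sampling noise. The chi-square per degree of freedom was 8.57 and 9.31 for shNT+OHT replicate 1 against replicates 2 and 3. It was 3.80 between replicates 2 and 3, and 2.69 to 6.88 for pairs in the other groups. Alternatives were DESeq2 1.42.0, upper-quartile scaling, no filter, a replicate block, thinning, a joint fit of the 12 libraries, and omission of single libraries. The MANE Select length was added after seeing the data.

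1 gene of the plasminogen list is not reported here. The members and lists were chosen with earlier results of these data known. Besides the members and CDK12, genes of the plasminogen list past the threshold in at least 1 of 5 comparisons were named, at most 20 by largest log2 fold change, and for each member the 3 genes of most similar pattern. Of the table's genes, 23284 had a symbol.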

Additional observations from a re-analysis of the deposited data

Results flagged for a closer look

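For 19 of the genes named, the interaction term of edgeR over 12 libraries had an adjusted p under 0.05. This term compares the response to OHT between the libraries labelled shCDK12 and shNT. Genes of the plasminogen list were named because they passed this threshold in at least 1 comparison, the interaction included. The count of 19 thus follows in part from that choice, so it is a description and tests nothing. Of all 11699 genes tested for this term, 45.2% were called. The differences, as the log2 response in shCDK12 minus that in shNT, were 4.18 for PLAU, 2.48 for PLAT, 0.67 for SERPINE2 and 0.61 for PLAUR, a description only, since these 4 genes were chosen with their responses known. CDK12 itself gave -0.83. Higher values in the libraries labelled shCDK12 were also found for LYPD1 (2.45), LRP1 (1.84), S100A10 (1.79), F3 (1.75), ANXA2 (1.74), MRC2 (1.59), F2R (1.51), SERPIND1 (1.45), CD59 (0.89), IGF2R (0.85) and PROCR (0.82). Lower values were found for VLDLR (-0.96) and LRP8 (-0.89). F12 gave -3.61, but with 2 to 7 counts per library in shNT and 6 to 28 in shNT+OHT it reached the count filter through the libraries labelled shCDK12 and was not tested in shNT+OHT against shNT, so nothing is read from its value. The call of SERPIND1 was lost without shNT replicate 3 (1.16). The call of VLDLR was lost without replicate 2 or 3 of shNT, 3 of shNT+OHT (-0.51), 1 or 3 of shCDK12, or 1 or 3 of shCDK12+OHT.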

How the results depend on the processing

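Over 130 alternative values of 10 counts of calls, 108 stayed within 1.5 times the main count. Thinned to the smallest total, members called fell to 1 in shNT+OHT against shNT, in shCDK12+OHT against shCDK12 and in shCDK12+OHT against shNT+OHT, and to 2 for the difference between OHT responses, while other genes called were 3 in shNT+OHT against shNT, 9 in shCDK12 against shNT, and 8, 8 and 10 in the last 3; thinning leaves fewer counts. In shNT+OHT against shNT, other genes called were 10 with all 12 libraries in 1 fit, 8 with no filter on low counts, and 3 to 8 without single libraries (3 without shNT replicate 2 or 3, 8 without shNT+OHT replicate 1). With upper-quartile scaling, 2 members were called for the difference between OHT responses. Leaving out single libraries, members called ran from 0 to 2 in shCDK12+OHT against shNT+OHT (0 without shCDK12+OHT replicate 1, 2 or 3, and 1 without shNT+OHT replicate 1) and from 2 to 4 for the difference between responses (2 without shNT replicate 2, shCDK12 replicate 2 or shCDK12+OHT replicate 1).

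Of 116 single-gene results, 68 kept call and sign in every alternative. Signs turned only for values that were not called. In shNT+OHT against shNT, without single libraries, PLAUR ran from -0.12 to 0.32 and PROCR from -0.27 to 0.0037. In shCDK12 against shNT, LRP8 was 0.037 with DESeq2, 0.089 with upper-quartile scaling, 0.33 thinned and 0.0032 in the 12-library fit, and ran from -0.089 to 0.14 without single libraries; PLGRKT ran from -0.23 to 0.14; and with upper-quartile scaling CDK12 was 0.015 and CD59 0.052. In shCDK12+OHT against shCDK12, PLGRKT ran from -0.018 (without shCDK12+OHT replicate 2) to 0.31. In shCDK12+OHT against shNT+OHT, ANXA2 was -0.073 thinned and from -9e-04 (without shNT+OHT replicate 1) to 0.20 without single libraries; S100A10 ran from -0.52 to 0.041 (the latter without shNT+OHT replicate 3). The cause was not tested.

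The main fits did not pair the libraries by replicate number. Of 18 pairs of libraries with the same number, 2 correlated over 0.1 (median 0.025, highest 0.30). Of 36 pairs with different numbers, 1 did (median -0.024, highest 0.10). These values do not settle whether the numbers pair the libraries. With the number as a block, members called were 2, 4, 3, 2 and 4 in the 5 comparisons, as without it, and LRP8 was 0.013 in shCDK12 against shNT. The MANE Select length, added after seeing the data, moved all 16 mean ratios between genes by more than 1 SD. The mean ratio of PLAU to PLAUR in shNT was 1.95 per merged exon base and 0.755 per MANE Select base.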
